A study of Mus musculus with 24 samples.

Results

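The colony-stimulating factors and their receptors were followed in all 24 libraries of a mouse study of β-NMN (β-nicotinamide mononucleotide, a precursor of NAD+) in peritonitis. The members were the 9 genes whose symbols are Csf1, Il34, Csf2, Csf3, Csf1r, Csf2ra, Csf2rb, Csf2rb2 and Csf3r, of 54658 symbols in the deposited counts. All mice were C57BL/6 males of 7 to 12 weeks with peritonitis, and no sham or unstimulated library was analysed here. In the TGC model, 6 vehicle (saline) and 6 β-NMN mice had received 1 mL of 4% Brewer thioglycollate, which elicits a sterile exudate, and their peritoneal cells were collected on day 3 and exposed to E. coli for 6 h in culture. In the CLP model, sepsis followed cecal ligation and puncture, and the heart and the lung of the same 3 vehicle and 3 β-NMN mice were taken at 24 h. β-NMN was injected intraperitoneally at 185 mg/kg/day from the induction of peritonitis.

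Colony-stimulating factors control the production, survival and activation of myeloid cells. M-CSF (Csf1) and IL-34 (Il34) both bind the tyrosine kinase CSF1R, which maintains monocytes and macrophages. GM-CSF (Csf2) acts through an α chain (Csf2ra) and the β common chain (Csf2rb), and G-CSF (Csf3), the main driver of granulocyte output during infection, acts through CSF3R. The mouse has a further β chain, Csf2rb2, which serves the IL-3 receptor.

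Levels are CPM, the read counts scaled to the library total and by TMM factors. Levels of different members were compared only per kilobase of exon, except in the ratio of Csf2rb2 to Csf2rb counts. A gene was called when its adjusted p in edgeR's quasi-likelihood test, over all genes tested in that tissue, was below 0.05. Library totals were 31126823 to 112456050 in peritoneal cells, 27319513 to 68523239 in hearts and 8915366 to 28356786 in lungs. The heart and the lung of vehicle mouse 2 stood apart from the other libraries of their organ. Over expressed genes, the SD of their log2 difference from the mean of the others was 0.743 in the heart (0.211 to 0.318 in the other 5) and 1.21 in the lung (0.317 to 0.470), and the lung library was the shallowest. Cardiomyocyte genes summed to 30944 to 47718 CPM in hearts, airway and alveolar epithelial genes to 49762 to 92813 CPM in lungs, and macrophage genes to 5428 to 11877 CPM in peritoneal cells, so each tissue carried its own markers.

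The 3′UTRs of the GM-CSF and G-CSF genes carry dense repeats of the pentamer ATTTA, the core of AU-rich elements that target cytokine mRNAs for decay. In the longest GENCODE M21 3′UTR of each gene, Csf2 held 9 pentamers in 317 bases, or 28.4 per kb, a density that 0.0808% of 21039 genes reached. Csf3 held 6 in 669 bases, or 8.97 per kb, reached by 1.55% of genes. The median over genes was 1.24 per kb. The window of up to 30 bases with most pentamers is shown for Csf2 and Csf3, whose density of these letters is far above the median, and for Csf1 as a ligand near the median (pentamers in capitals, 5′ to 3′, sense strand):

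Csf2: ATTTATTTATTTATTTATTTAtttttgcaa

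Csf3: ATTTAtctctATTTAatATTTAtgcatatt

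Csf1: ATTTAaatatctATTTAaaaaataggaagc

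The 5 repeats of the Csf2 window overlap head to tail, whereas those of Csf3 are separated by short spacers. Csf1 had 4 pentamers, but in 2111 bases. Il34 had 1 and Csf1r had 3, while Csf2ra, Csf2rb, Csf2rb2 and Csf3r had 0. The longer core TTATTTATT occurred 4 times in Csf2 and in no other member, and in 7.66% of all genes. These matches describe the annotated sequence and were not measured as sites of decay.

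**Figure D1:**
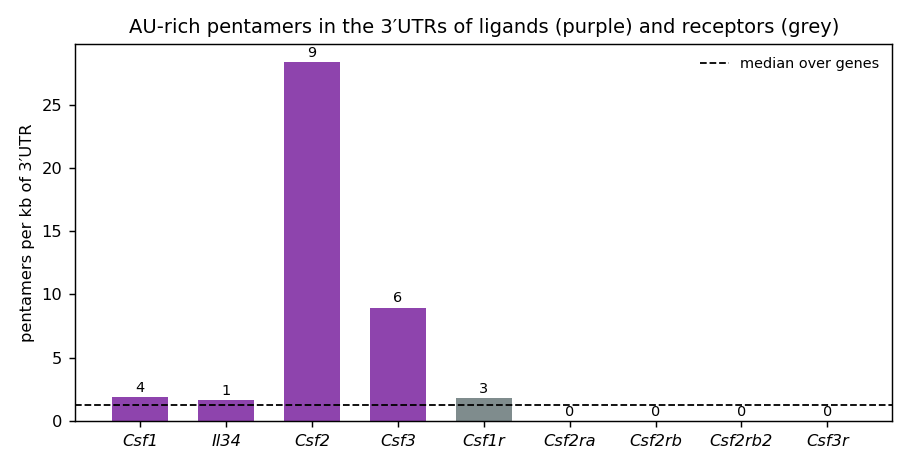
Bars give the number of ATTTA pentamers per kb of the longest annotated 3′UTR for the 4 ligands (purple) and 5 receptor genes (grey), with the pentamer count above each bar and the median over all genes as a dashed line. Csf2 (28.4 per kb) and Csf3 (8.97 per kb) stand above the other members, and 4 of the 5 receptor genes have none.

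In peritoneal cells, both inducible ligands fell with β-NMN, G-CSF far more than GM-CSF, while M-CSF and most receptors did not pass the test. Of the 8 members tested, 3 were called, all lower (Csf3, Csf2 and Csf3r), where 51.6% of all 14985 genes tested were called and 27.9% were called lower. The median log2 fold change was -0.15 over the members tested and -0.02 over all genes. A call alone was therefore common in these cells, and the members differed mainly in the size of their change.

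Csf3 (chromosome 11, 98701263 to 98703629, plus strand, GRCm38) ranged from 76.7 to 362 CPM in the vehicle libraries, with a median of 184 CPM. In the β-NMN libraries it ranged from 1.71 to 4.92 CPM, with a median of 3.61 CPM. Every β-NMN library was thus far below every vehicle library, with 145 to 193 reads left in each. Mean levels were 195 ± 107 CPM and 3.323 ± 1.305 CPM (SD, n = 6), and Csf3 fell by 5.90 on the log2 scale (SE 0.43, adjusted p = 8.94e-08), or 59.9-fold. It ranked 105 by p among the genes tested. The exact two-sided permutation test gave p = 0.00216, the smallest it can give for 6 against 6.

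Csf2 (chromosome 11, 54247271 to 54249667, minus strand) lies on the same chromosome as Csf3 but is not its neighbour. Its level was 22.6 to 57.2 CPM in vehicle (median 29.5 CPM) and 3.70 to 7.89 CPM in β-NMN libraries (median 4.29 CPM). The groups did not overlap, and the highest library of both groups was replicate 6. Mean levels were 32.9 ± 12.4 and 4.88 ± 1.54 CPM, and Csf2 fell by 2.76 on the log2 scale (SE 0.24, adjusted p = 4.26e-07), or 6.77-fold. The groups did not overlap at 2 of the 8 members tested, Csf2 and Csf3. Over all genes tested they did not overlap at 26.6%, with 14.0% lower and 12.6% higher. An antisense transcript, Gm12223, overlaps the exons of Csf2. No source used here says whether the counting used strand, and a read could stem from either gene of the pair.

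Csf1 (chromosome 3, 107741048 to 107760469, minus strand), the factor that resident and stromal cells make constitutively, ranged from 221 to 344 CPM in vehicle (median 249.7 CPM). It ranged from 180 to 391 CPM in β-NMN libraries (median 205 CPM). The groups overlapped, and 1 β-NMN library, replicate 6, held 391 CPM while the other 5 held at most 226 CPM. The log2 fold change was -0.19 (SE 0.18, adjusted p = 0.402) over all libraries, and -0.36 (adjusted p = 0.0146) without that library. Il34 (chromosome 8, 110741829 to 110805924, minus strand), the other ligand of CSF1R, had 2 to 25 reads per library, or 0.068 to 0.272 CPM, and did not pass the low-count filter. The family's macrophage ligand in these cultures was therefore read almost wholly from Csf1.

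**Figure D2:**
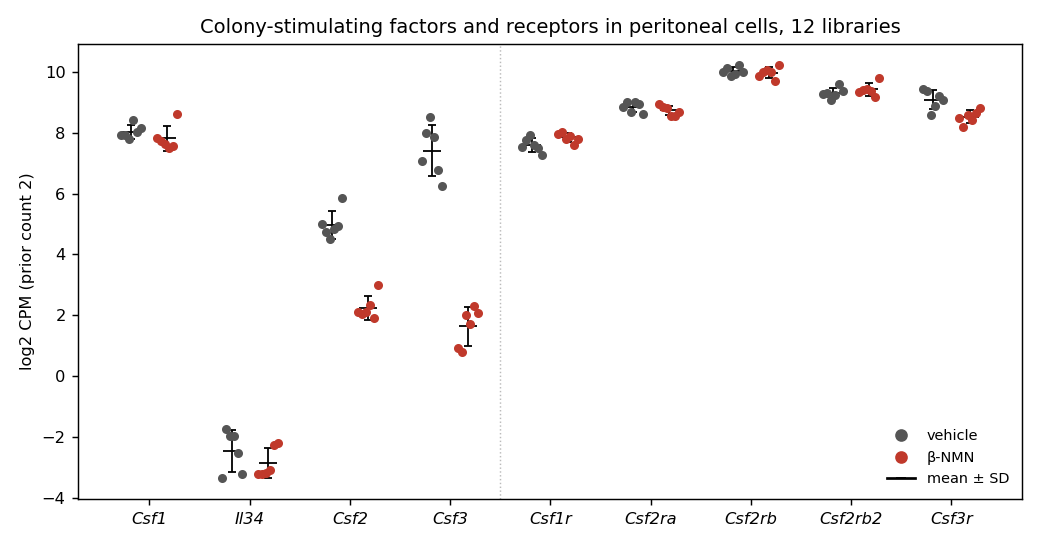
Each point is the log2 CPM (prior count 2) of a gene in 1 of 12 peritoneal cell libraries, vehicle in grey and β-NMN in red, with mean ± SD in black. Csf3 and Csf2 separate fully between the groups, whereas the receptor genes to the right of the dotted line lie close together.

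Of the receptors, the G-CSF receptor fell and the others did not pass the test. Csf3r (chromosome 4, 126024550 to 126044440, plus strand) ranged from 383 to 689 CPM in vehicle (median 562 CPM) and from 294 to 447 CPM in β-NMN libraries (median 370.4 CPM). The groups overlapped through vehicle replicate 3 at 383 CPM, the only vehicle library below the highest β-NMN library. It fell by 0.58 on the log2 scale (SE 0.14, adjusted p = 0.00295; exact permutation p = 0.00866).

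Csf1r (chromosome 18) ranged from 155 to 241 CPM in vehicle and from 194 to 262 CPM in β-NMN libraries. Its log2 fold change was 0.24 (SE 0.11, adjusted p = 0.071), so it did not pass. It passed with the size factors of DESeq2 (0.27, adjusted p = 0.0443), with the DESeq2 test (0.27, adjusted p = 0.0357), without vehicle replicate 3 (0.35, adjusted p = 0.0087) and without β-NMN replicate 5 (0.32, adjusted p = 0.031). On the opposite strand, Hmgxb3 overlaps exons of Csf1r, with the same limit as for Csf2.

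The GM-CSF receptor chains and Csf2rb2 did not pass the test. Csf2ra (chromosome 19, 61223957 to 61228429, minus strand) had 462 ± 52.0 CPM in vehicle and 427 ± 46.7 CPM in β-NMN libraries (log2 fold change -0.11, SE 0.10, adjusted p = 0.362). Csf2rb (chromosome 15, 78325752 to 78353847, plus strand) had 1042 ± 102 and 1009 ± 123 CPM (-0.05, SE 0.10, adjusted p = 0.726). Csf2rb2 (chromosome 15, 78282507 to 78305721, minus strand) had 633 ± 76.0 and 689 ± 104 CPM (0.12, SE 0.11, adjusted p = 0.379). The 6.77-fold difference of the ligand gene Csf2 thus stood beside receptor genes whose group means lay within their spread.

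Per kilobase of exon, the vehicle libraries held Csf2ra at 161 ± 18.1, Csf3r at 154 ± 32.1, Csf2rb at 143 ± 14.0, Csf3 at 138 ± 76.1 and Csf2rb2 at 134 ± 16.04 CPM per kb. Neighbours among these 5 did not differ beyond their spread. Csf1 (50.1 ± 8.39), Csf2 (41.1 ± 15.5) and Csf1r (33.8 ± 5.24) followed, and Il34 (0.086 ± 0.044) was last. Csf2 did not differ beyond the spread from Csf1 or from Csf1r, whereas every vehicle library held more Csf1 per kb than any held Csf1r. In the β-NMN libraries Csf3, at 2.35 ± 0.92 CPM per kb, had left the upper tier and lay below Csf2 (6.10 ± 1.92) and above Il34 (0.058 ± 0.027) alone.

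Markers of several other cell types moved with treatment in the same libraries. The mesothelial and fibroblast genes (4 of 5 called lower) summed to 45.5 to 691 CPM in vehicle and 8.17 to 45.3 CPM in β-NMN libraries, with vehicle replicate 3, which had the highest Csf3, at the top. The NK cell genes (4 of 4 lower) summed to 37.6 to 202 and 12.8 to 33.0 CPM, and the T cell genes (6 of 6 lower) to 5.34 to 19.8 and 2.12 to 4.72 CPM. The dendritic cell genes (4 of 6 lower, 1 higher) summed to 171 to 209 and 38.8 to 52.8 CPM. The neutrophil genes (4 lower and 1 higher of 7 tested) summed to 108 to 310 and 20.5 to 51.8 CPM. The B cell genes (2 of 4 lower) summed to 30.6 to 149 and 20.6 to 81.6 CPM, the mast cell and eosinophil genes (0 of 4 called) to 63.4 to 147 and 53.5 to 110.1 CPM, and the endothelial genes (2 of 3 lower) to 63.1 to 143 and 64.8 to 116 CPM, all with overlap. The share of mitochondrial reads was 0.504 to 0.653% in vehicle and 0.599 to 0.886% in β-NMN libraries, where only replicate 6 lay below 0.75%. The part of these cells and of this share in the levels of Csf3, Csf2 and Csf3r was not tested. Without vehicle replicate 3, Csf3 differed by -5.60 on the log2 scale (adjusted p = 6.43e-08). In bulk libraries, fewer cells of a type and less RNA per cell cannot be told apart.

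Csf3r is known as a neutrophil receptor, and the 10 neutrophil genes listed spanned a wide range in these cells. S100a8 was at 50.8 to 146 CPM in vehicle and 1.89 to 5.64 CPM in β-NMN libraries, and S100a9 at 36.6 to 135 and 0.80 to 6.91 CPM. Mmp8 was at 6.40 to 14.4 and 6.77 to 23.1 CPM, and Retnlg at 3.33 to 10.1 and 3.21 to 30.1 CPM. Ly6g was at 0.58 to 1.57 CPM in vehicle and at most 0.13 CPM in β-NMN libraries, and Cxcr2 at 1.95 to 7.65 and 0.10 to 0.56 CPM. Mpo, Elane, Camp and Ngp were each below 1 CPM in all 12 libraries. The macrophage genes, which exclude Csf1r, summed to 5428 to 8306 CPM in vehicle and 10347 to 11877 CPM in β-NMN libraries, with 3 of 6 called higher and 0 lower.

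Of 66 listed regulators and signalling partners, 63 were tested in peritoneal cells, and 8 were called higher and 34 lower, or 66.7% called. Over all genes tested, 51.6% were called, 23.7% higher and 27.9% lower. The median log2 fold change was -0.40 over the listed genes and -0.02 over all genes. The lists were chosen with earlier results of these data known, so their shares, here and in the organs, are a description. All 15 inducers and mRNA decay factors of the factor genes were called, 14 lower and 1 higher (Zfp36l2), with a median of -0.87.

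The members of that list act in opposite ways on the factor genes. Il1b, an inducer of G-CSF, went from 2478 ± 920 to 275 ± 64.3 CPM (log2 fold change -3.17, SE 0.26, adjusted p = 2.55e-07). Ets2, a transcription factor of the Ets family, went from 698 ± 93.3 to 160 ± 30.01 CPM (-2.12, adjusted p = 2.13e-08). The decay factors moved in both directions. Zfp36l2, a further gene of the Zfp36 family that binds AU-rich elements, rose by 1.05 (SE 0.14, adjusted p = 3.21e-05). Lower were Zc3h12a, the RNase Regnase-1, by 1.55 (SE 0.09, adjusted p = 1.86e-08), and Zfp36l1, which binds AU-rich elements such as those shown for Csf2 and Csf3, by 1.99 (SE 0.18, adjusted p = 6.57e-07). Also called lower were the NF-κB subunit genes Nfkb1 and Rela, and Tnf, Cebpb, Cebpd, Nfkbiz, Runx1, Il17a, Il17ra and Zfp36.

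Downstream of the receptors, 9 of 15 transcription factor and survival genes were called (60%, near the 51.6% of all genes), 7 lower and 2 higher (Pparg and Irf8). Egr1, an immediate early gene, fell by 1.79 (adjusted p = 1.44e-06), Irf4 by 1.58 (adjusted p = 2.5e-05) and the survival gene Bcl2l1 by 1.37 (adjusted p = 4.93e-07) on the log2 scale. Pparg, which GM-CSF is known to induce in alveolar macrophages, instead rose from 6.16 ± 1.06 to 18.5 ± 1.56 CPM (1.59, SE 0.12, adjusted p = 1.23e-07).

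Of 10 negative regulators, 60% were called. Socs3 (-0.98, adjusted p = 0.000184), Cish (-0.85, adjusted p = 0.00012), Inpp5d and Cbl were called lower, and Socs2 (0.65, adjusted p = 0.000161) and Dok1 (0.64, adjusted p = 0.000135) higher. Of 19 receptor-proximal genes, 52.6% were called, much as among all genes, with 9 lower, among them the PI3-kinase genes Pik3cg (-1.48, adjusted p = 1.71e-06) and Pik3r1 (-0.95, adjusted p = 0.000137) and the adaptor Shc1 (-0.53, adjusted p = 0.000195). The only one called higher was Tyrobp (0.76, adjusted p = 3.7e-05), an adaptor of myeloid receptors. Of the other β common family, Il3ra, the IL-3 receptor α chain, rose by 0.65 on the log2 scale (adjusted p = 7.48e-05), and Il3 was at most 0.045 CPM (2 reads) in any peritoneal library. Trem2, listed as a further receptor of IL-34, rose by 1.30 (adjusted p = 6.34e-06).

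Within the groups, the genes whose log2 CPM followed a member most closely differed between members. After centring on the group means, over 12 libraries and 6822 genes searched, Csf3 was most like Saa3 (r = 0.93), Il1b (0.93) and Il1a (0.92), an acute phase gene and a pair of IL-1 genes. Csf1r was most like Itgax, Tmem189 and Ndufv1 (0.94, 0.91 and 0.90) and Csf3r like Alpk1, Il18 and Creb5 (0.95, 0.94 and 0.94). Csf2rb was most like Tnks2, Rnpepl1 and Spg20 (0.90, 0.89 and 0.88). Among the members, the highest such r was 0.92 between Csf2rb and Csf2rb2, whereas Csf2 and Csf3, which both fell, had r = -0.44 within the groups. The libraries share their culture and depth with both genes of a pair, so these values are a description.

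Csf2rb and Csf2rb2 lie close together on chromosome 15 on opposite strands, and their coding sequences are 95.3% identical over 2629 aligned bases. Coding bases 53 to 112 of both genes are shown to make plain how few bases tell their reads apart (the 4 differing bases in capitals, GENCODE M21):

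Csf2rb: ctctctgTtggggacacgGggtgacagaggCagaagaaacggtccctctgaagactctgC

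Csf2rb2: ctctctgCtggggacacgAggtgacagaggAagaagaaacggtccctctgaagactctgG

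Over the whole transcripts, 3.47% of the 150-base windows of the Csf2rb transcript occurred without a mismatch in that of Csf2rb2, and 3.59% the other way round, so most windows of a read's length held at least 1 differing base. No source used here says how reads that match both were counted, and the levels of the pair are uncertain to that extent.

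The ratio of Csf2rb2 to Csf2rb counts, not scaled for exon length (4740 and 7277 bases), differed by tissue. This ratio was compared between libraries and does not rank the pair. In hearts it was 0.720 to 1.05 in vehicle and 0.824 to 1.14 in β-NMN mice, and in lungs 0.0667 to 0.257 and 0.197 to 0.268. The 0.0667 came from vehicle mouse 2 (18 against 270 reads), and the other 5 lungs lay at 0.197 to 0.268. In peritoneal cells it was 0.556 to 0.646 in vehicle (median 0.611) and 0.653 to 0.736 in β-NMN libraries (median 0.677). The peritoneal groups did not overlap but lay next to each other, although neither gene passed the test alone. This was noticed after the values were seen and was not tested.

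**Figure D3:**
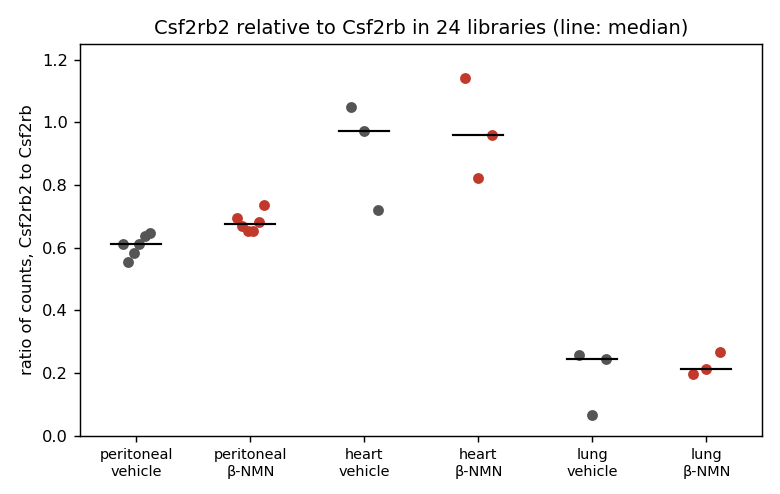
Each point is the ratio of Csf2rb2 to Csf2rb counts in 1 of 24 libraries, by tissue and treatment, with the group median as a line. Counts were not scaled for exon length. Hearts lie at 0.720 to 1.14, peritoneal cells at 0.556 to 0.736 and lungs at 0.197 to 0.268 apart from vehicle mouse 2 at 0.0667.

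In the hearts of septic mice, 7 of the 8 members tested had lower fitted levels with β-NMN, but no gene tested passed the adjusted threshold in edgeR. Of 16245 genes tested, 0 (0%) were called by edgeR, 1837 had an unadjusted p below 0.05, 3 were called without the low-count filter and 283 were called by DESeq2. At 6 of the 8 members all 3 β-NMN hearts lay below all 3 vehicle hearts, where 11.5% of all genes tested did so, and 23.1% did not overlap in either direction. Of these members, Csf3 passed the low-count filter only through the vehicle hearts. The median log2 fold change of the 8 members was -0.68, against -0.01 over all genes. The exact permutation test of 3 against 3 cannot give a p below 0.1.

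Csf1, the member with the highest level per kb in hearts, was at 86.7, 83.6 and 80.1 CPM in the vehicle and 56.3, 50.7 and 61.5 CPM in the β-NMN hearts. The replicates were tight and the groups did not overlap. Its log2 fold change was -0.57 (SE 0.11, adjusted p = 0.435), DESeq2 called it (adjusted p = 0.0041), and it was -0.58 without vehicle mouse 2.

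Csf3 was at 0.584, 22.4 and 2.15 CPM in the vehicle hearts, from 38, 1193 and 74 reads. The β-NMN hearts had 0, 4 and 8 reads, or 0, 0.074 and 0.124 CPM, and the count of 0 allows up to 0.110 CPM, counting error only. The groups did not overlap, but vehicle mouse 2 held most of the reads. The log2 fold change was -6.70 (SE 1.64, adjusted p = 0.435) with it and -4.07 (adjusted p = 0.18) without it. DESeq2 called Csf3 with all mice (adjusted p = 0.00698). Csf3 passed the low-count filter only through the vehicle hearts, where it was higher. Csf2 had 2, 10 and 7 reads in vehicle and 1, 1 and 0 in β-NMN hearts and was below the filter. Of the GM-CSF and G-CSF genes, only the latter passed the filter in hearts.

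Among the heart receptors, the β chains followed vehicle mouse 2 most. Csf2rb was at 12.3, 33.6 and 9.37 CPM in vehicle and 4.77, 4.19 and 5.23 CPM in β-NMN hearts. Csf2rb2 was at 12.9, 32.6 and 6.75 CPM and 5.44, 3.46 and 5.01 CPM. Neither pair of groups overlapped, with mouse 2 highest for both. The log2 fold change of Csf2rb was -1.96 (SE 0.48, adjusted p = 0.435), and -1.21 (adjusted p = 0.109) without mouse 2. For Csf2rb2 it was -1.92 (SE 0.56, adjusted p = 0.435) and -1.11 (adjusted p = 0.293). DESeq2 called both with all mice (adjusted p = 0.0061 and 0.0243).

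Csf3r was at 7.44, 4.89 and 6.37 CPM in vehicle and 3.65, 3.14 and 4.00 CPM in β-NMN hearts (-0.79, SE 0.22, adjusted p = 0.435). Here mouse 2 was the lowest of the vehicle hearts. Csf2ra had 23.7 ± 2.59 and 20.2 ± 1.10 CPM (-0.23, adjusted p = 0.461) without overlap, and Csf1r had 45.9 ± 4.30 and 40.7 ± 3.76 CPM (-0.18, adjusted p = 0.528) with overlap. Il34 was the member with a higher fitted level, at 3.48 ± 0.20 and 4.01 ± 0.83 CPM (0.21, adjusted p = 0.638).

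In the same hearts the neutrophil genes summed to 17.99 to 35.9 CPM in vehicle and 12.2 to 14.4 CPM in β-NMN mice. The mesothelial and fibroblast genes summed to 369 to 934 and 311 to 517 CPM, and the cardiomyocyte genes to 30944 to 42227 and 44030 to 47718 CPM. The dendritic cell genes summed to 14.3 to 24.5 and 26.1 to 29.1 CPM. Vehicle mouse 2 had the highest mesothelial and fibroblast sum, the lowest cardiomyocyte sum and the lowest share of mitochondrial reads (12.9% against 18.2 to 22.7%). Its B cell sum (4.83 CPM, at most 1.61 CPM in the others) was the highest. So was its mast cell and eosinophil sum (4.82 CPM, at most 1.51 CPM in the others), and its macrophage sum (164 CPM) was the lowest. The part of these values in the heart levels was not tested.

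In lungs, only the G-CSF gene had an unadjusted p below 0.05 among the 9 members, all of which were tested. edgeR called 0 (0%) of 17008 genes, 301 had an unadjusted p below 0.05, and DESeq2 called 9. At 0 members the groups stood apart, where 8.21% of genes did so, 3.75% with lower and 4.47% with higher β-NMN levels. Csf3 was at 1.59, 20.9 and 0.497 CPM in vehicle lungs (47, 145 and 12 reads) and 0.122, 0.077 and 0.587 CPM in β-NMN lungs (2, 2 and 16 reads). The groups overlapped, and vehicle mouse 2 was highest, as in its heart. The log2 fold change was -4.76 (SE 1.57, adjusted p = 0.969), and -1.91 (adjusted p = 0.991) without that library.

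The constitutive ligands and the receptors showed no separation in lungs, and vehicle mouse 2 was the lowest library for 5 of them. Its macrophage genes summed to 1317 CPM, against 3889 to 5389 CPM in the other lungs. Its endothelial sum (693 CPM) was also the lowest and its T cell sum (27.6 CPM) the highest, and their part in these levels was not tested. Csf1 was at 60.2, 11.3 and 63.4 CPM in vehicle and 31.9, 36.3 and 58.2 CPM in β-NMN lungs (-0.10, SE 0.60). Csf1r was at 92.4, 24.6 and 120 CPM and 88.0, 139 and 97.6 CPM (0.45, SE 0.54). Csf2ra was at 45.2, 5.49 and 80.4 CPM and 39.4, 57.5 and 60.7 CPM (0.26, SE 0.77). Without that library these values became -0.55, 0.02 and -0.25. Csf2rb2 and Csf3r were at 2.60 and 4.91 CPM in it, and at 6.70 to 17.1 and 15.4 to 41.3 CPM in the other 5 lungs, with log2 fold changes of -0.029 (SE 0.62) and -0.035 (SE 0.66), and of -0.46 and -0.49 without that library and 0.53 and 0.89 without vehicle mouse 3. Csf2rb was at 44.2, 39.0 and 69.4 CPM and 33.9, 49.2 and 50.6 CPM (-0.19, SE 0.30), and 0.12 without vehicle mouse 3. Il34 was steadier in vehicle lungs, at 15.8, 15.7 and 14.2 CPM, against 21.6, 11.9 and 15.6 CPM with β-NMN (0.10, SE 0.28). Csf2 was at 0.870 to 1.30 CPM in vehicle and 1.08 to 1.76 CPM in β-NMN lungs (0.29, SE 0.43). Adjusted p were at least 0.969 for all 9, and the biological coefficient of variation was 0.437 in lungs, 0.293 in hearts and 0.233 in peritoneal cells.

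**Figure D4:**
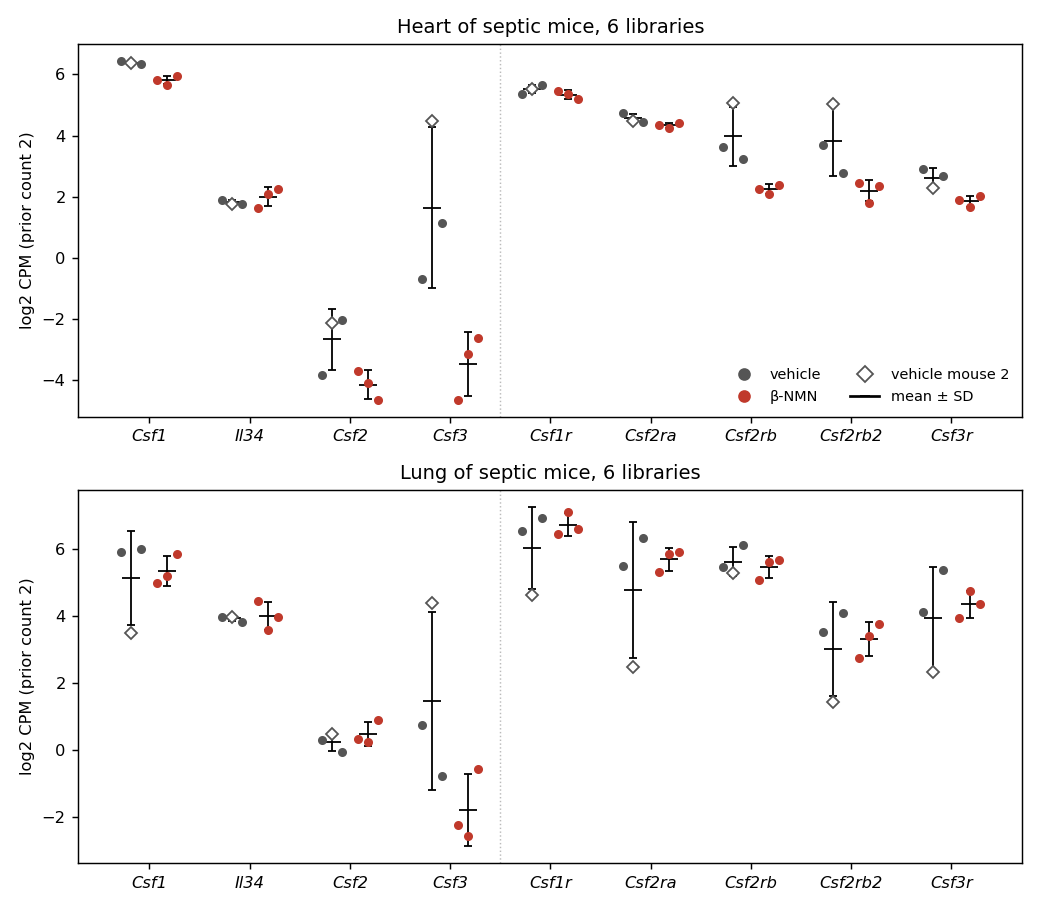
Each point is the log2 CPM (prior count 2) of a gene in 1 heart (top) or lung (bottom) library of the septic mice, vehicle in grey and β-NMN in red, mean ± SD in black, with the libraries of vehicle mouse 2 as open diamonds. Mouse 2 has the highest Csf3 of both organs (22.4 CPM in the heart and 20.9 CPM in the lung) and the lowest lung levels of Csf1r, Csf2ra, Csf2rb2 and Csf3r.

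Of the pathway genes, 61 were tested in hearts and 62 in lungs, and 0 were called in either, with 19 and 3 at an unadjusted p below 0.05, where 11.3% and 1.77% of all genes tested were. Their median log2 fold change was -0.34 in hearts and -0.14 in lungs, against -0.0058 and 0.00057 over all genes. The smallest p in hearts belonged to Socs3, which was at 143 ± 87.8 CPM in vehicle and 28.7 ± 2.75 CPM in β-NMN hearts (-2.32, SE 0.41, adjusted p = 0.435). In lungs it belonged to Il1b, at 13.7 ± 1.15 and 7.12 ± 2.13 CPM (-0.94, SE 0.30, adjusted p = 0.969). In the other lists, the gene with the smallest p was Egr1 (-1.97), Il1b (-1.35), Fgr (-1.58), Sdc1 (-1.48) and Il3ra (0.08) in hearts, and Pim1 (-1.21), Socs1 (-1.17), Stat5a (-0.51), Ptprz1 (-0.51) and Il3ra (-0.45) in lungs. Vehicle mouse 2 was the highest library for Socs3, Egr1, Fgr and Sdc1 among these heart genes and for all 5 of the latter lung genes. Pim1 was at 275 CPM in its lung, 71.0 and 84.9 CPM in the other vehicle lungs and 58.8 to 66.6 CPM with β-NMN. Il3ra was at 99.3 CPM in it, 29.9 and 32.5 CPM in the other vehicle lungs and 63.0, 27.8 and 27.4 CPM with β-NMN, so the mean of the vehicle lungs lay above that of the β-NMN lungs only with this library. Sdc1 was at 40.5 CPM in its heart, 11.5 and 7.22 CPM in the other vehicle hearts and 5.88 to 9.18 CPM with β-NMN.

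**Figure D5:**
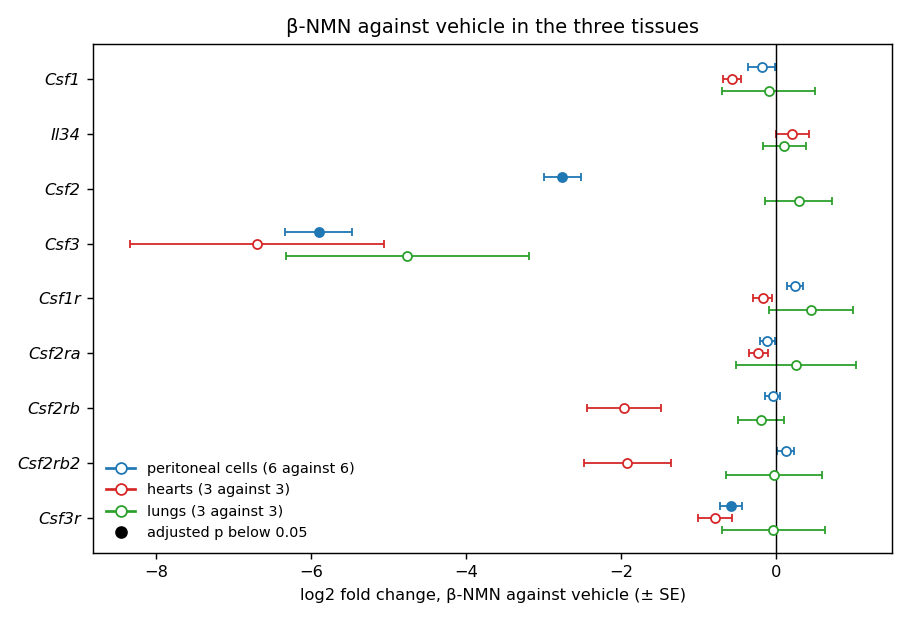
Log2 fold changes of β-NMN against vehicle with their SE are shown for each member tested, in peritoneal cells (blue), hearts (red) and lungs (green), filled where the adjusted p was below 0.05. Csf3 lies at -5.90, -6.70 and -4.76 in the 3 tissues, and filled points are found in peritoneal cells for Csf3, Csf2 and Csf3r.

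Whether the effect of β-NMN differed between the organs was tested by an interaction over the 12 CLP libraries. Of 18318 genes, 0 (0%) were called by edgeR, 797 had an unadjusted p below 0.05, and 14 were called by DESeq2. The smallest p among members belonged to Csf2 (-3.28, SE 1.11, unadjusted p = 0.0121) and Csf2rb (-1.77, SE 0.60, unadjusted p = 0.0124), hearts minus lungs, both with an adjusted p of 0.96 in the edgeR model. Csf2 had at most 10 reads in any heart library and entered this fit only through the lungs. Without both libraries of vehicle mouse 2 the Csf2rb difference was -0.84 (adjusted p = 0.985), and without its heart library alone it was -1.004 (adjusted p = 1).

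Heart and lung were also compared directly. In the fit over the 12 libraries, scaled together, 5 of 9 members were called between heart and lung, 1 higher in heart and 4 higher in lung, where 64.8% of all 18318 genes were called, 28.9% higher in heart and 35.9% higher in lung. The median log2 difference, heart minus lung, was -0.48 over the members and -0.14 over all genes. Csf1 was higher in heart, at 88.3 ± 19.4 CPM against 35.0 ± 17.1 CPM in lung (SD, n = 6; 1.31 on the log2 scale, SE 0.35, adjusted p = 0.0062), in 6 of 6 mice. Il34, the alternative ligand of the same receptor, was higher in lung, at 12.5 ± 2.43 CPM against 4.74 ± 0.80 CPM in heart (1.40, SE 0.18, adjusted p = 3.57e-05), also in 6 of 6 mice. Antisense transcripts Gm15894 and Gm15895 overlap Il34, with the limit given for Csf2.

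Csf2, which alveolar macrophages need to mature, was higher in lung in 6 of 6 mice, at 0.964 ± 0.25 CPM against 0.1001 ± 0.114 CPM (3.95, SE 0.56, adjusted p = 6.73e-05). Csf2 was below the low-count filter in hearts and entered this fit only through the lungs, where it was higher, so its call is a description. Csf2rb was higher in lung in 5 of 6 mice, at 37.9 ± 10.7 CPM against 14.6 ± 14.0 CPM (1.68, SE 0.31, adjusted p = 0.000461), the exception being vehicle mouse 2. Csf3r was higher in lung in 5 of 6 mice, at 16.8 ± 10.0 CPM against 6.22 ± 2.14 CPM (1.49, SE 0.40, adjusted p = 0.00595). The neutrophil genes, here scaled within each organ and not over the 12 libraries, summed to 1518 to 2712 CPM in lungs and 12.2 to 35.9 CPM in hearts. The part of neutrophils in the level of Csf3r was not tested.

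The other receptors and Csf3 did not pass between organs. Lung minus heart was 0.44 on the log2 scale for Csf1r (adjusted p = 0.233), 0.48 for Csf2ra (adjusted p = 0.351) and 0.11 for Csf3 (adjusted p = 0.933), and heart minus lung was 0.44 for Csf2rb2 (adjusted p = 0.408). Csf1r and Csf2ra were higher in lung in 5 of 6 mice each. Leaving out both libraries of vehicle mouse 2, an alternative chosen after seeing the data, gave a heart minus lung difference of -0.55 for Csf1r (adjusted p = 0.00502) and -0.60 for Csf2ra (adjusted p = 0.00854), and kept the 5 calls. Both genes also passed without the lung of mouse 2 alone (-0.66, adjusted p = 0.00126, and -0.74, adjusted p = 0.0022). Without the lung of vehicle mouse 3 they were -0.20 (adjusted p = 0.573) and -0.079 (adjusted p = 0.874), and Csf1r lay between -0.51 and -0.32 and Csf2ra between -0.58 and -0.34 when each of the other libraries was left out in turn.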

How the data were processed

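RNA was sequenced from peritoneal cells (6 vehicle and 6 β-NMN mice) and from hearts and lungs (3 and 3 mice, both organs of the same animals). The authors deposited raw read counts for 54658 gene symbols, without normalization. Per the labels, reads were mapped with STAR 2.7.3a to mm10 and counted with featureCounts 2.0.0. The annotation, the strand setting and the low-count filter were not given in the sources used here, and read length was 150 bases. The source labels of the hearts and lungs name thioglycollate, whereas titles and tissue labels give CLP. A pair of β-NMN hearts carry the number 3, and the one from the mouse of lung 2 was taken as replicate 2.

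In R 4.3.3, edgeR 4.0.16 was run on 1 tissue at a time, with filterByExpr, TMM and the older quasi-likelihood F-test, and Benjamini-Hochberg adjustment over all genes tested. Heart against lung and the interaction used the 12 CLP libraries as 4 groups. Single genes also had an exact two-sided permutation test on log2 CPM (prior count 2). Alternatives were DESeq2 1.42.0 and its size factors, no filter, the newer quasi-likelihood form, a replicate block, both organs in one fit, a prior count of 0.5 and leaving out each library. The tests were also run on simulated counts with changes planted only in genes with many reads, and the outcome is not reported here. No replicate pair agreed within sampling noise.

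All 9 members were named in every tissue, with the 4 called genes of smallest p and a mean log2 CPM of at least 1 from each pathway list in peritoneal cells, the gene of smallest p per list in hearts and lungs, and the 3 most alike genes of each of a few members (those of Csf1 are not reported here). The members and lists were chosen with earlier results of these data known. Positions, exon lengths and sequences came from GENCODE M21 (GRCm38), which holds 54106 of the symbols. Shared replicate numbers of vehicle and β-NMN mice did not pair them: correlations of their deviations ran from -0.19 to 0.01 in peritoneal cells, up to 0.07 in hearts and -0.60 to 0.37 in lungs. Heart and lung of a mouse are paired by the animal, with correlations of 0.05 to 0.21. Library totals limit precision by counting error only, and p-values within a tissue measure the spread between mice. The heart against lung and interaction fits had no mouse block, so their p-values treat both organs of a mouse as independent. In the replicate block alternative, the mouse was the block between organs.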

Additional observations from a re-analysis of the deposited data

Results flagged for a closer look

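A library far from the others of its group was found for 3 member levels in peritoneal cells, all in replicate 6. Csf1 was 391 CPM in β-NMN replicate 6, where the next highest of the 6 libraries was 226 CPM. Csf2 was 57.2 CPM in vehicle replicate 6, where the next was 32.0 CPM, and 7.89 CPM in β-NMN replicate 6, where the next was 5.01 CPM. The vehicle and β-NMN libraries of that number came from different mice. Chance alone marks about 1 in 20 groups in this way.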

How the results depend on the processing

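Csf3, Csf2 and Csf3r stayed called and lower in peritoneal cells under all 17 alternatives, with log2 fold changes of -6.07 to -5.60, -2.92 to -2.53 and -0.63 to -0.48. The peritoneal count of called genes ran from 6775 to 8149 and was 7010 with the replicate block, which changed no call of a member in any comparison. Over all results, 720 of 768 alternative values kept their direction and side of the threshold, 0 lost a call, 13 gained one and 29 changed sign, none of them a called value.

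The count of called genes moved from 0 to 3 without the low-count filter and to 283 with DESeq2 in hearts, to 9 with DESeq2 in lungs, and to 2 and 14 under these alternatives in the interaction. Leaving out single libraries gave 0 to 5 calls in hearts, 5 of them without vehicle mouse 2, and the cause was not tested. With the replicate block, the lung log2 fold changes of Csf1, Csf2rb2 and Csf3r became 0.18, 0.22 and 0.32.

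Leaving out single libraries gave ranges that crossed 0 for Csf2rb in peritoneal cells (-0.070 to 0.031). In lungs they did so for Csf1 (-0.55 to 0.23), Il34 (-0.14 to 0.29), Csf2ra (-0.25 to 1.04), Csf2rb (-0.35 to 0.12), Csf2rb2 (-0.46 to 0.53) and Csf3r (-0.49 to 0.89). For Csf3 the heart minus lung difference ran from -1.33 to 1.24. In the interaction, the ranges were -0.79 to 0.0048 for Csf1, -4.75 to 0.62 for Csf3, -0.086 to 0.32 for Il34 and -1.24 to 0.057 for Csf2ra. Without both libraries of vehicle mouse 2, chosen after seeing the data, heart minus lung became 0.042 for Csf3 and -0.072 for Csf2rb2, and the interaction of Csf2ra 0.0042.

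With 3 mice a group, a shallow and deviant vehicle library in lungs and few reads of Csf2 and Csf3 outside peritoneal cells, a difference in the organs that missed the threshold is not shown to be absent.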
